A study of Homo sapiens with 12 samples.

Results

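The genes described here are 35 genes of protein folding in the endoplasmic reticulum and of the unfolded protein response, given as a list of gene names. A member was measured where a probe set of the array is annotated to its symbol alone, and where several were, the one with the highest mean log2 value over the arrays was used. This gave 32 of the 35 genes, out of 19775 genes measured in this way. PDIA5, SYVN1 and TXNDC5 were left out, because the annotation of their probe sets adds a second gene. All 32 passed the filter on dim signals that left 13959 genes for testing, and no member read below a signal of 440.1 on any array. They form 4 classes: 17 chaperones and oxidoreductases, 4 genes of degradation, 8 genes of translocation and of entry to the secretory path, and 3 genes for sensors and their factor.

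RNA came from U937 cells, a human monocytic line, electroporated with a plasmid for 1 of 3 constructs and sorted for GFP fluorescence, and was hybridised to 12 Affymetrix arrays. PR2VR cells carried pEGFP-PR2VR, which is taken here to be the protease-resistant form of PML-RARA in the series' title, although the sample labels call its insert wild type. PRWT cells carried pEGFP-PRWT, the wild-type PML-RARA fusion of acute promyelocytic leukemia, and GFP cells carried the pEGFP plasmid with GFP alone. Each construct was harvested at 9 h and at 6 h, with 2 arrays per construct and time, numbered 1 and 2. The time is counted from infection in the labels of PR2VR and PRWT and from transfection in those of GFP, and any difference in procedure cannot be told apart from the fusion. All groups share the line, the electroporation and the sort, untransfected cells were not analysed here, and fusion levels are those of a transient plasmid. The labels do not say whether numbers 1 and 2 were separate transfections, so the p-values cover no more than the scatter of these arrays, part or all of which may be technical.

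Proteins bound for the cell surface or for secretion enter the endoplasmic reticulum through the SEC61 channel, lose their signal peptide, gain sugars and disulfide bonds, and fold with the help of chaperones such as BiP, the product of HSPA5. Proteins that fail to fold are sent back to the cytosol and degraded. When unfolded protein builds up, the sensors IRE1 (ERN1), ATF6 and PERK start the unfolded protein response: IRE1 splices XBP1 mRNA to give an active factor, cleaved ATF6 moves to the nucleus, and PERK slows translation and favours ATF4. ATF6 and XBP1 act on the endoplasmic reticulum stress element of chaperone promoters. HSPA5, DNAJB9, HERPUD1 and SDF2L1 are common readouts of the response.

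The promoters of the members were searched for this element, since it can be read without the array values. RefSeq promoters (GRCh38.p14, from 250 bases before the gene's start to 50 after it) were at hand for 33 of the 35 genes. The element was taken as CCAAT, 9 bases of any kind and CCACG, and its second form as ATTGG, 1 base of any kind and CCACG, each on either strand. The first form was found in 8 of the 33 members (24.2%), against 0.0916% of 27305 genes, and the second in 3 of 33 (9.09%), against 0.0696% of genes. The 11 members were HSPA5, HSP90B1, CALR, CANX, PDIA6, ERO1B, CRELD2 and XBP1 with the first form and HYOU1, SDF2L1 and HERPUD1 with the second. For DNAJB9, a common readout named above, neither form was found. The core CCACG alone, which both forms contain, was in 78.8% of members and 42.1% of genes. The list names genes of the response that acts through this element, so the list itself favours an excess over all genes. A match is a run of letters and not a measured site. Stretches upstream of the start are printed for 6 of these genes that are followed below, with the fixed bases of the element in capitals, read along the gene's own strand, so that an element on the other strand appears as its reverse complement.
HSPA5 (chr9:125241344-125241493, minus strand): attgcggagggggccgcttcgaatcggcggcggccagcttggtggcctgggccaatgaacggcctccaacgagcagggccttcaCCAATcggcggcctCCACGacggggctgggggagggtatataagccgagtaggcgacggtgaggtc
HSP90B1 (chr12:103930196-103930359, plus strand): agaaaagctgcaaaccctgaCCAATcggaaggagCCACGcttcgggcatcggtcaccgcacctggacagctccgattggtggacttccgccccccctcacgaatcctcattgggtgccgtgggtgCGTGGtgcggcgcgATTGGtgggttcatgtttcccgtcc
CRELD2 (chr22:49918534-49918592, plus strand): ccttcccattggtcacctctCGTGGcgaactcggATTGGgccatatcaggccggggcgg
SDF2L1 (chr22:21642094-21642144, plus strand): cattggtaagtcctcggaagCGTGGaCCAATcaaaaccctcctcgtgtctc
HERPUD1 (chr16:56932005-56932055, plus strand): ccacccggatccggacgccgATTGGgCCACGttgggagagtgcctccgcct
XBP1 (chr22:28800583-28800641, minus strand): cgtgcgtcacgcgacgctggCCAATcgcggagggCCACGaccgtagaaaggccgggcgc
In HSP90B1 the element stands once on each strand. In HSPA5 it ends 48 bases before the start of the gene, and in XBP1 34 bases before it.

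Some properties of the arrays touch all results. RARA, part of the fusion, read from 9281 to 41097 on the PR2VR arrays, from 11971 to 58985 on the PRWT arrays and from 48.2 to 309.2 on the GFP arrays. Of 17 myeloid marker genes measured 15 lay over the filter, and CD14 and SPI1 did not. So did 5 of 5 B cell markers, 5 of 7 of epithelium and fibroblasts, 3 of 6 of T cells and 2 of 5 erythroid and megakaryocytic ones. A place over the filter thus does not by itself tell the cell type. Of the plasma cell markers, a type rich in endoplasmic reticulum, 4 of 8 lay over the filter, with MZB1, JCHAIN, TNFRSF17 and POU2AF1 below. Their summed signal ran from 3558 to 9184 on PR2VR arrays, from 4500.0 to 9907 on PRWT arrays and from 3183 to 11875 on GFP arrays, so the constructs overlapped. The 3 arrays of 1 time and number are called a set. In the set of 9 h number 2 the ratio of 3' to 5' signal of GAPDH, a measure of RNA integrity and labelling, was 2.21 to 2.75, against 3.82 to 12.9 on the other 9 arrays. The same ratio of ACTB was 7.79 to 10.7 in that set, against 12.5 to 58.2 on the other 9. The highest ACTB ratios were on PR2VR arrays. They were 58.2 at 9 h number 1 (PRWT 33.6, GFP 35.3) and 56.9 at 6 h number 2 (PRWT 27.5, GFP 18.9). At 9 h number 2 and 6 h number 1 the PR2VR ratio lay between those of PRWT and GFP. At 6 h number 2 the GAPDH ratio was lowest in PR2VR (3.82). Any bearing on the PR2VR differences was not tested. The median signal of the arrays of 9 h number 2 was 387.6 to 435.8, against 238.8 to 292.4 on the other 9. The PR2VR array of 6 h number 1 also stood apart, with the lowest mean correlation with the other arrays (0.901). Medians and counts of the gene classes that differ without the PR2VR array of 6 h number 1 are given with and without it.

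No member passed the test in any comparison. Differences are on the scale of log2(signal + 62.5), tested with limma over all 13959 genes, with an adjusted p under 0.05 as the threshold. For both fusion forms against GFP, 0 of 32 members passed, beside 0.00716% of all genes, and for PR2VR and PRWT alone against GFP the counts were also 0 of 32 beside 0.00716%. For PR2VR against PRWT they were 0 of 32 beside 0%, and for the effect of the fusions at 9 h minus that at 6 h 0 of 32 beside 0%. At 9 h alone and at 6 h alone, the fusions against GFP gave 0 of 32 beside 0.00716% each. With the set as a block, 0 of 32 members passed in each of these comparisons, beside 0.315% of all genes for both fusions against GFP, 0.294% for PR2VR against GFP, 0.00716% for PRWT against GFP, at 9 h alone and at 6 h alone, and 0% for PR2VR against PRWT and for the difference between times. Taken without adjustment, p was under 0.05 for 0 members for both fusions against GFP (3.14% of all genes), 0 for PRWT against GFP (2.06%), 1 for PR2VR against GFP (3.95%) and 3 for PR2VR against PRWT (1.55%). With the block these were 3 (8.4%), 1 (5.44%), 6 (11.1%) and 7 (6.86%). At 9 h alone and at 6 h alone the unadjusted counts were 0 and 0 (2.08% and 1.83% of all genes), or 2 and 2 with the block (6.32% and 5.63%). For the difference between times they were 0 (0.759%) and 0 with the block (3.11%).

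Most members had a difference slightly below 0 in fusion cells, with the lower median in PR2VR cells, and none of them passed the test. In RNA of sorted cells in bulk, fewer cells with a transcript and less of it per cell cannot be told apart. In PR2VR against GFP 27 of 32 members had a difference below 0, with a median of -0.33, where 53.1% of all genes lay below 0 and the median was -0.03. In PRWT against GFP it was 21 of 32, with a median of -0.11, beside 49.4% of all genes and a median of 0.00. PR2VR against PRWT, which does not use the GFP arrays, gave 24 of 32 and a median of -0.19, beside 51.3% and -0.01. For both fusions against GFP it was 26 of 32 and -0.18, beside 52.4% and -0.02. At 9 h alone the fusions were below GFP for 25 of 32 members (median -0.15), beside 54.3% of all genes, and at 6 h alone for 24 of 32 (median -0.14), beside 49.6%. The effect at 9 h minus that at 6 h was below 0 for 14 of 32 members, with a median of 0.12, beside 52% of all genes. Since each of the first 2 comparisons uses the same GFP arrays, their counts are no separate observations. PR2VR against PRWT uses the fusion arrays of those 2, so it is no separate observation either. The 32 members were read on the same arrays, so a count of members is not a count of separate observations. The medians depended on single arrays. Without the PR2VR array of 6 h number 1 the PR2VR median against GFP was -0.18 with 22 of 32 below 0, and that against PRWT was -0.13 with 19 of 32. The all-gene medians were then -0.07 and -0.05. The PR2VR median was -0.19 when the GFP array of 6 h number 2 was left out and -0.22 when that of 9 h number 2 was, beside -0.04 and -0.01 for all genes. The same omissions put the median of both fusions at -0.10 and -0.07, beside -0.03 and 0.00. Without the 3 arrays of 9 h number 2 the PR2VR median was -0.29, with 27 of 32 below 0, beside an all-gene median of -0.04. In the 4 sets taken singly, the median of PR2VR minus GFP was -0.20 and -0.27 at 9 h (numbers 1 and 2) and -0.09 and -0.20 at 6 h, beside all-gene medians of -0.07, -0.02, 0.13 and -0.06. The median of PRWT minus GFP was 0.04 and 0.01 at 9 h and 0.07 and -0.28 at 6 h, so only the set of 6 h number 2 was below 0. In 4 of 4 sets PR2VR lay below GFP for 8 of 32 members (9.96% of all genes did so) and above it for 1, ERN1 (10.3%). The mean of both fusions lay below GFP in 4 of 4 sets for 7 members (10.7%), which were PDIA6, P4HB, DNAJB9, SEC61A1, SSR1, SPCS3 and XBP1, and above it for 1, ERN1 (9.23%). PRWT lay below GFP in 4 of 4 sets for 5 members (8.4%) and above it for 4 (8.5%).

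**Figure D1:**
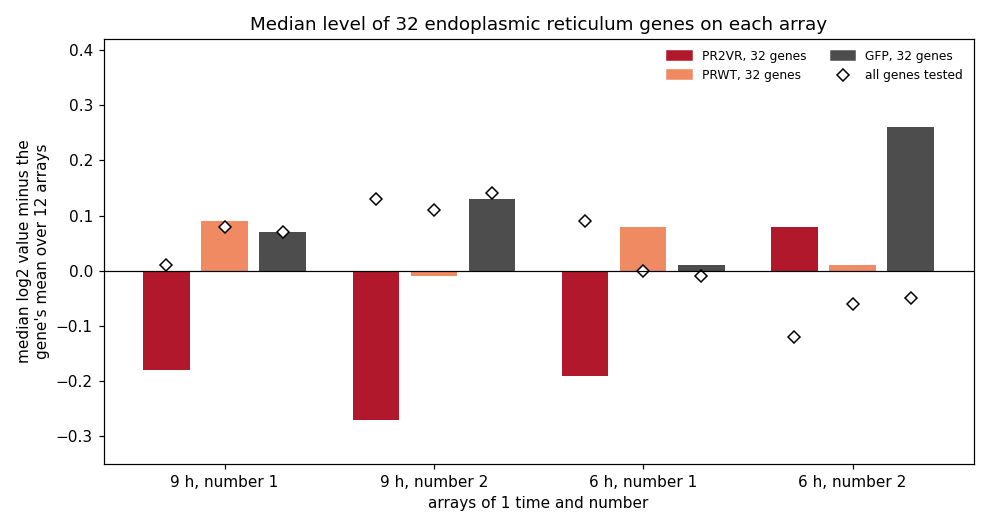
Median over 32 genes of the log2 value minus each gene's mean over the 12 arrays (vertical axis, log2), for PR2VR, PRWT and GFP within each time and number (bars); open diamonds show the same over all genes tested. The PR2VR bar is the lowest of its set in 3 of the 4 sets, at -0.18, -0.27 and -0.19, and at 6 h number 2 it stands at 0.08, above PRWT at 0.01 and below GFP at 0.26.

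The members varied more from set to set than from construct to construct. The set within a time held a median of 47.5% of a member's sum of squares over the 12 arrays (31.9% for all genes), the construct 13.1% (10.2%) and the time 4.6% (11.7%). The set was the largest part for 21 of 32 members, beside 45.6% of all genes. SSR3, a subunit of the translocon-associated complex, had 77.1% of its variation between sets, and DNAJB11, a co-chaperone of BiP, 68.5%. P4HB, a protein disulfide isomerase, was the member with the largest share for construct, at 47.9%. The ratios of GAPDH signal differed between sets as given above, and their part in this was not tested.

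**Figure D2:**
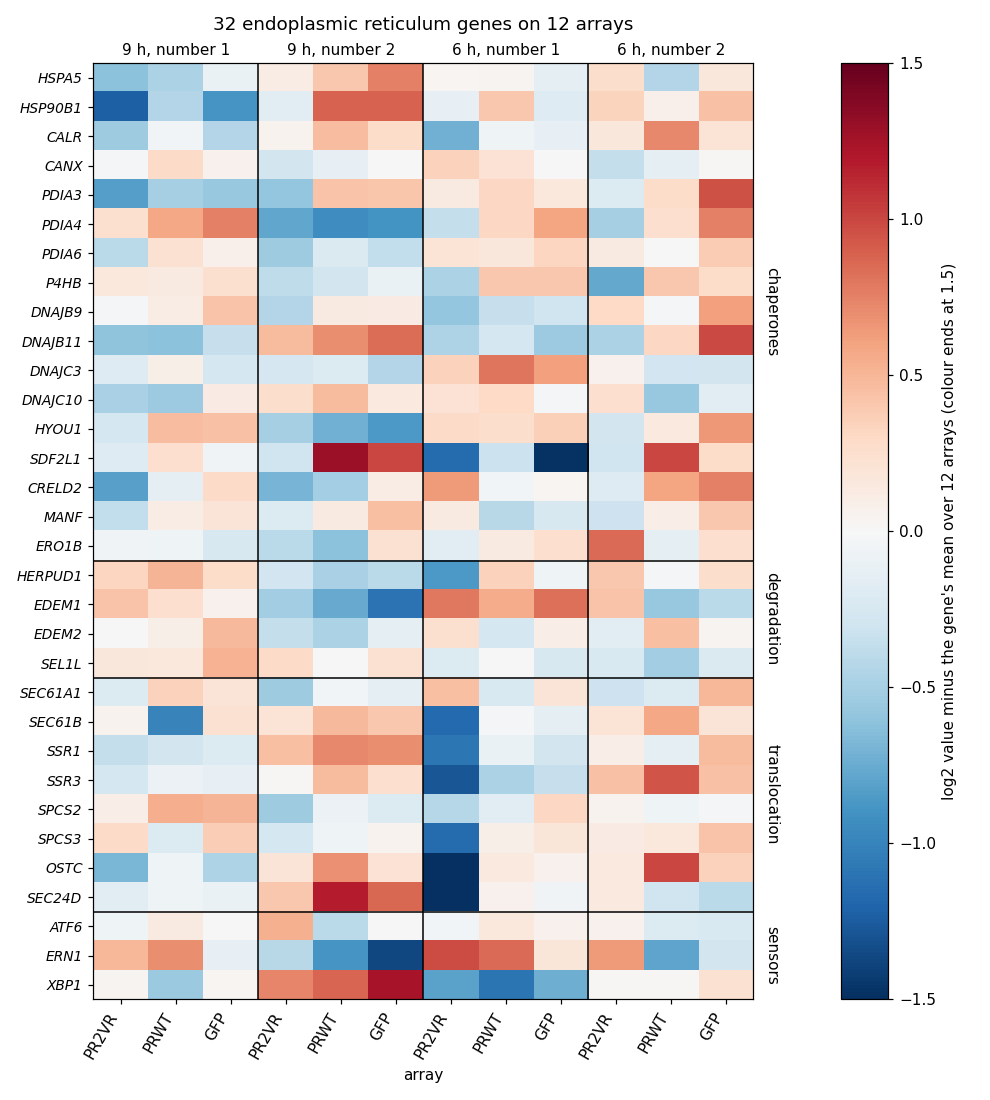
Log2 value of each of the 32 genes (rows, by class) minus its mean over the 12 arrays, on each array (columns, PR2VR, PRWT and GFP within each time and number), with red above and blue below the mean. Colours change between the blocks of 3 columns more than within them, as for XBP1 and EDEM1, and the PR2VR array of 6 h number 1 is blue for most genes of translocation.

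Among the 17 chaperones and oxidoreductases, 14 had a difference below 0 in fusion cells and the median was -0.22, from -0.44 for PDIA4, a protein disulfide isomerase, to 0.14 for DNAJC3, a co-chaperone that also restrains PERK. The count and the median were the same without the PR2VR array of 6 h number 1, and 11 of 17 and -0.25 without the 3 arrays of 9 h number 2. The other probe sets of DNAJC3 over the filter gave -0.08, 0.04 and -0.20. HSPA5 encodes BiP, the main chaperone of the compartment. Its signal was 14759.9 and 24489.8 in PR2VR cells at 9 h and 23159.8 and 27181 at 6 h, 16253 and 29887 in PRWT cells at 9 h and 23264 and 16741 at 6 h, and 21218 and 38257 in GFP cells at 9 h and 20644 and 25549 at 6 h (numbers 1 and 2 each time, here and below). GFP was the highest of its set in both sets of 9 h and not in those of 6 h, and the ranges of the 3 constructs overlapped. The difference was -0.26 ± 0.27 in fusion cells (log2, SE, 95% interval -0.84 to 0.32, adjusted p = 1.0), -0.23 ± 0.31 in PR2VR and -0.29 ± 0.31 in PRWT cells. Its second probe set over the filter gave 0.08 for the fusions. An induction of HSPA5 by more than 0.32 on this scale thus lay outside the interval of the probe set used, for the averaged fusions.

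HSP90B1, the endoplasmic reticulum form of HSP90, read 1019.6 and 2193 in PR2VR cells at 9 h and 2269 and 3139 at 6 h, 1814 and 4610.0 in PRWT cells at 9 h and 3290.4 and 2619 at 6 h, and 1321 and 4619 in GFP cells at 9 h and 2165 and 3393 at 6 h. The constructs overlapped, and the arrays of 9 h number 2 were above those of 9 h number 1 in each construct. The fusion difference was -0.10 ± 0.38 (adjusted p = 1.0), and the gene's other probe set gave -0.74, so the size of this difference is not settled by the array. DNAJB9, a co-chaperone of BiP and a target of spliced XBP1, read 4806 and 3570.1 in PR2VR cells at 9 h and 3236 and 5990.1 at 6 h, 5267 and 5312 in PRWT cells at 9 h and 3822 and 4774 at 6 h, and 6598 and 5291 in GFP cells at 9 h and 3941 and 7485 at 6 h. The mean of the fusions lay below GFP in 4 of 4 sets, but the ranges overlapped. The difference was -0.33 ± 0.27 (adjusted p = 1.0), and the gene's 2 other probe sets over the filter gave -0.31 and -0.02.

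CRELD2, a protein of the endoplasmic reticulum with a stress element in the promoter printed above, was one of 2 members for which the 4 fusion arrays of 9 h lay below both GFP arrays of that time. The other was MANF, and 6.28% of all genes did so. The 4 fusion arrays lay above both GFP arrays at 9 h for 1 member, DNAJC3 (5.32% of all genes). At 6 h they lay below for 4 members, PDIA4, PDIA6, HYOU1 and SPCS3 (4.27%), and above for 0 (4.76%). CRELD2 read 2318 and 2524 in PR2VR cells and 3737 and 2883 in PRWT cells at 9 h, against 5065 and 4489.6 in GFP cells. At 6 h it read 6496 and 3632 in PR2VR cells and 4025 and 6255 in PRWT cells, against 4239.6 and 7009.9 in GFP cells. At 6 h the groups overlapped. The fusion difference was -0.75 ± 0.37 at 9 h (adjusted p = 1.0, and 0.77 with the block) and -0.44 ± 0.27 over both times (adjusted p = 1.0). The difference between the times did not pass either (-0.60 ± 0.53, adjusted p = 1.0).

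P4HB forms and rearranges disulfide bonds. Its signal at 9 h was 61115 and 42002 in PR2VR cells, against 59973 and 45437 in PRWT cells and 64478 and 51139.6 in GFP cells. At 6 h it was 39177 and 31981 in PR2VR cells, against 72320.5 and 72100.1 in PRWT cells and 72288 and 65771 in GFP cells. At 9 h the 3 constructs overlapped, and both PR2VR arrays of 6 h were below the other 10 arrays. This held for 1 of 32 members and 2% of all genes, and the opposite for 0 members and 2.01% of all genes. Averaged over the times, P4HB differed by -0.57 ± 0.24 in PR2VR against GFP (interval -1.09 to -0.05, adjusted p = 1.0, and 0.17 with the block) and by -0.04 ± 0.24 in PRWT against GFP. The PR2VR difference from GFP within the sets was -0.08 and -0.28 at 9 h and -0.88 and -1.04 at 6 h. The gene's 2 other probe sets over the filter gave -0.21 and -0.52 for PR2VR against GFP.

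SDF2L1, which works with BiP and its co-chaperones, had the largest difference between the fusion forms among the 32 members. It read 1166 and 1075 in PR2VR cells at 9 h and 569 and 1079 at 6 h, 1601 and 3329 in PRWT cells at 9 h and 1061 and 2730.5 at 6 h, and 1294 and 2729.9 in GFP cells at 9 h and 440.1 and 1621 at 6 h. PRWT was the highest of each of the 4 sets, and PR2VR was the lowest of 3, the exception being 6 h number 1, where GFP had the lowest value of the 12 arrays. SDF2L1 differed by -0.42 ± 0.46 in PR2VR (adjusted p = 1.0) and by 0.62 ± 0.46 in PRWT (adjusted p = 1.0) against GFP. The array holds 1 probe set with this symbol alone.

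**Figure D3:**
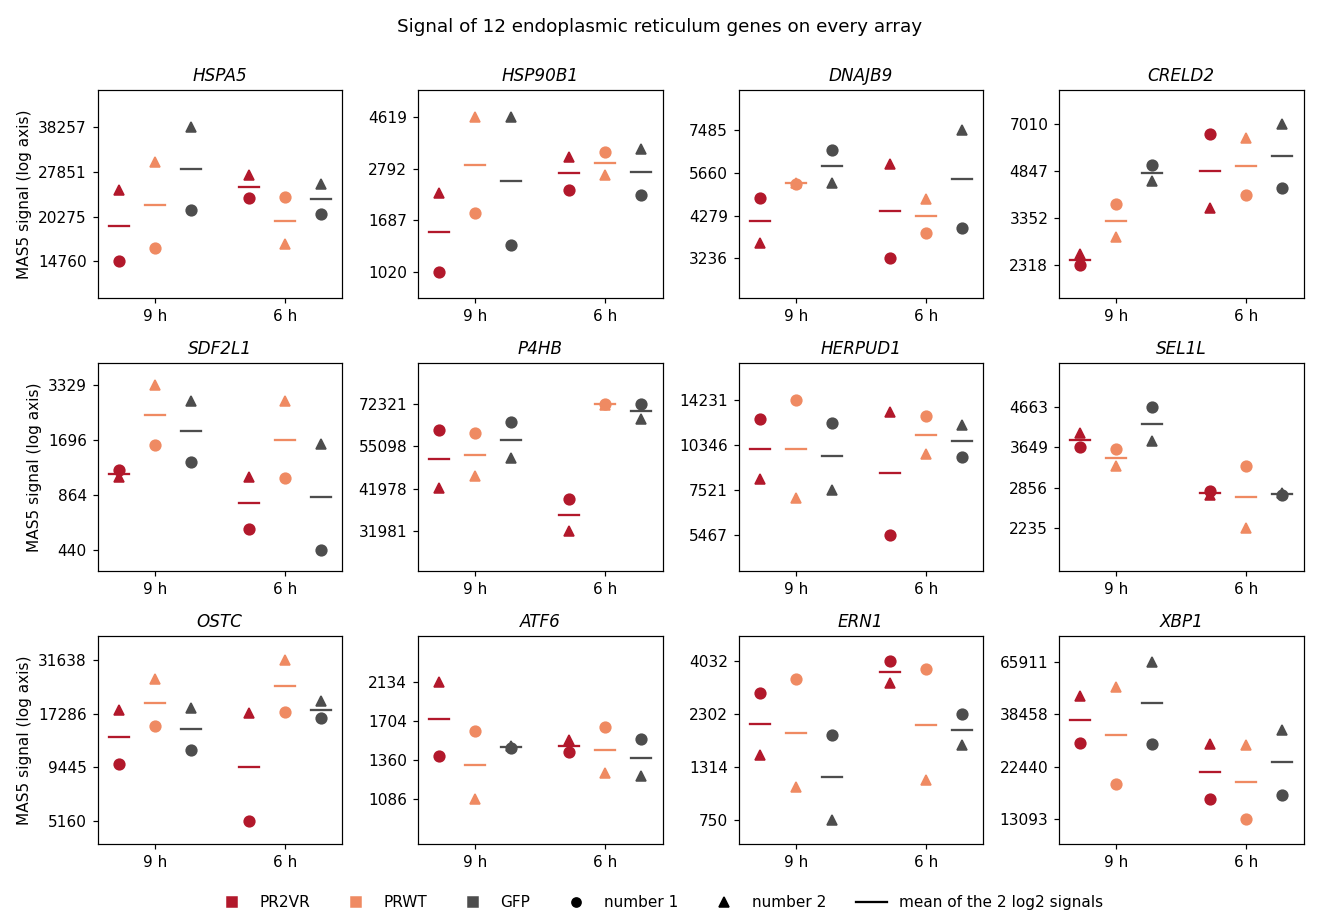
MAS5 signal (vertical axis, log scale, arbitrary units set by scaling) of 12 genes in PR2VR, PRWT and GFP cells at 9 h and 6 h; circles are number 1, triangles number 2, and lines mark the mean of the 2 log2 signals. The fusion points of CRELD2 at 9 h and the PR2VR points of P4HB at 6 h lie below the GFP points of the same time, and elsewhere the 2 arrays of a group are often as far apart as the constructs.

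Of the 4 degradation genes, 3 had a difference below 0 in fusion cells, with a median of -0.07, or 2 of 4 with a median of 0.01 without the PR2VR array of 6 h number 1. HERPUD1, which helps assemble the retrotranslocation machinery and responds to both ATF6 and ATF4, read 12459 and 8125 in PR2VR cells at 9 h and 5467 and 13102 at 6 h, 14231 and 7079 in PRWT cells at 9 h and 12728 and 9714 at 6 h, and 12092 and 7525 in GFP cells at 9 h and 9489 and 11908 at 6 h. The highest and the lowest values of PR2VR cells came from the 2 arrays of 6 h, and the constructs overlapped throughout. The fusion difference was -0.03 ± 0.31 (interval -0.69 to 0.63, adjusted p = 1.0). EDEM1, a lectin that passes misfolded glycoproteins on for degradation, had the highest difference of the class at 0.23 ± 0.36, and its relative EDEM2, which trims mannose, the lowest at -0.18 ± 0.26. SEL1L, the partner of the ubiquitin ligase HRD1, differed by -0.11 ± 0.23. None passed (adjusted p = 1.0 each).

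All 8 genes of translocation and entry to the secretory path had a difference below 0 in fusion cells, with a median of -0.24, from -0.38 ± 0.27 for the signal peptidase subunit SPCS3 to -0.06 ± 0.35 for OSTC, a subunit of oligosaccharyltransferase. The other probe sets of SPCS3 over the filter gave -0.13 and 0.22. In PR2VR against GFP the 8 had a median of -0.36, all below 0, and in PRWT against GFP one of -0.10, with 5 of 8 below 0. These counts and medians rested on the PR2VR array of 6 h number 1. Without it 5 of 8 were below 0 in fusion cells, with a median of -0.09, and 6 of 8 in PR2VR against GFP, with a median of -0.09. This array had the lowest signal of the 12 arrays for SEC61B, SSR1, SSR3, SPCS3, OSTC and SEC24D, which encode a subunit of the SEC61 channel, 2 subunits of the translocon-associated complex, the peptidase subunit, the oligosaccharyltransferase subunit and a coat protein of transport vesicles. OSTC read 9814 and 17970.3 in PR2VR cells at 9 h and 5160.4 and 17443 at 6 h, 14949 and 25405 in PRWT cells at 9 h and 17509.9 and 31638 at 6 h, and 11439.7 and 18340.1 in GFP cells at 9 h and 16425 and 19899 at 6 h. PRWT was the highest of each set and PR2VR the lowest. OSTC differed by -0.52 ± 0.40 in PR2VR and by 0.40 ± 0.40 in PRWT against GFP (adjusted p = 1.0 for both), and the PR2VR value was -0.09 without the array just named.

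Of the 3 genes for sensors and their factor, 2 had a difference above 0 in fusion cells, with a median of 0.06, and none passed. ERN1 encodes IRE1, the kinase and RNase that splices XBP1. It read 2879.9 and 1492 in PR2VR cells at 9 h and 4032 and 3188 at 6 h, 3318 and 1062 in PRWT cells at 9 h and 3697 and 1138 at 6 h, and 1850.3 and 750.2 in GFP cells at 9 h and 2297 and 1653 at 6 h. PR2VR was above GFP in 4 of 4 sets and PRWT in 3 of 4, the exception being 6 h number 2, and the ranges of the 3 constructs overlapped. The difference was 0.82 ± 0.46 in PR2VR (interval -0.18 to 1.82, adjusted p = 1.0, and 0.26 with the block) and 0.36 ± 0.46 in PRWT against GFP. Over both fusions it was 0.59 ± 0.40, the highest of the 32 members, where the gene's 2 other probe sets over the filter gave 0.00 and -0.18. ATF6, the sensor cleaved in the Golgi, read 1395 and 2134 in PR2VR cells at 9 h and 1422 and 1530.0 at 6 h, 1608 and 1086 in PRWT cells at 9 h and 1647 and 1259 at 6 h, and 1461 and 1477 in GFP cells at 9 h and 1533 and 1237 at 6 h. These values overlapped, with a fusion difference of 0.06 ± 0.25 (interval -0.48 to 0.59, adjusted p = 1.0), and the gene's 3 other probe sets over the filter gave 0.02, -0.24 and 0.43.

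XBP1, the factor downstream of IRE1, read 28699 and 46184 in PR2VR cells at 9 h and 16004 and 28198 at 6 h, 18812 and 51090.5 in PRWT cells at 9 h and 13093 and 28163 at 6 h, and 28457 and 65911 in GFP cells at 9 h and 16739 and 32753 at 6 h. The fusion mean was below GFP in 4 of 4 sets, by 0.21 to 0.44, and the sets differed far more than the constructs. The fusion difference was -0.29 ± 0.37 (adjusted p = 1.0, and 0.66 with the block), and the gene's other probe set over the filter gave -0.45. The value is a transcript level, and splicing of XBP1 was not measured here.

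The 2 fusion forms were then compared with each other, protease resistance being what the series' title names. SDF2L1 (PR2VR minus PRWT -1.03 ± 0.46, interval -2.03 to -0.04), OSTC (-0.93 ± 0.40, interval -1.79 to -0.06) and P4HB (-0.54 ± 0.24, interval -1.05 to -0.02) had the smallest unadjusted p of the members, at 0.043, 0.037 and 0.043. Their adjusted p over all genes was 1.0, and 0.72 with the block for each, so none passed. Within the sets SDF2L1 differed by -0.44 and -1.58 at 9 h and by -0.83 and -1.29 at 6 h, and OSTC by -0.60 and -0.50 at 9 h and by -1.75 and -0.86 at 6 h. P4HB differed by 0.03 and -0.11 at 9 h and by -0.88 and -1.17 at 6 h. Without the PR2VR array of 6 h number 1 the OSTC difference was -0.49 and the SDF2L1 difference -0.82. PR2VR was below PRWT in 4 of 4 sets for 5 members, namely CALR, PDIA3, SDF2L1, SSR3 and OSTC, beside 6.93% of all genes, and above it for 1, EDEM1, beside 7.55%. HSPA5 differed by 0.07 ± 0.31, with an interval of -0.60 to 0.73, which does not show that the forms act alike. All 8 genes of translocation were below 0 in this comparison, with a median of -0.27, the 17 chaperones had a median of -0.22 with 14 below 0, and the 3 sensor genes were above 0, from 0.19 ± 0.42 for XBP1 to 0.46 ± 0.46 for ERN1. Without the PR2VR array of 6 h number 1, the translocation genes had 5 of 8 below 0 and a median of -0.07, the chaperones had 13 of 17 and -0.30, and the sensor genes were still above 0. Without the 3 arrays of 9 h number 2, 7 of 8 translocation genes and 1 of the 3 sensor genes were below 0. The sign of the sensor genes also depended on the probe set. Their other probe sets over the filter gave 0.58 and -0.48 for ERN1, -0.47, 0.00 and 0.46 for ATF6, and 0.57 for XBP1.

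**Figure D4:**
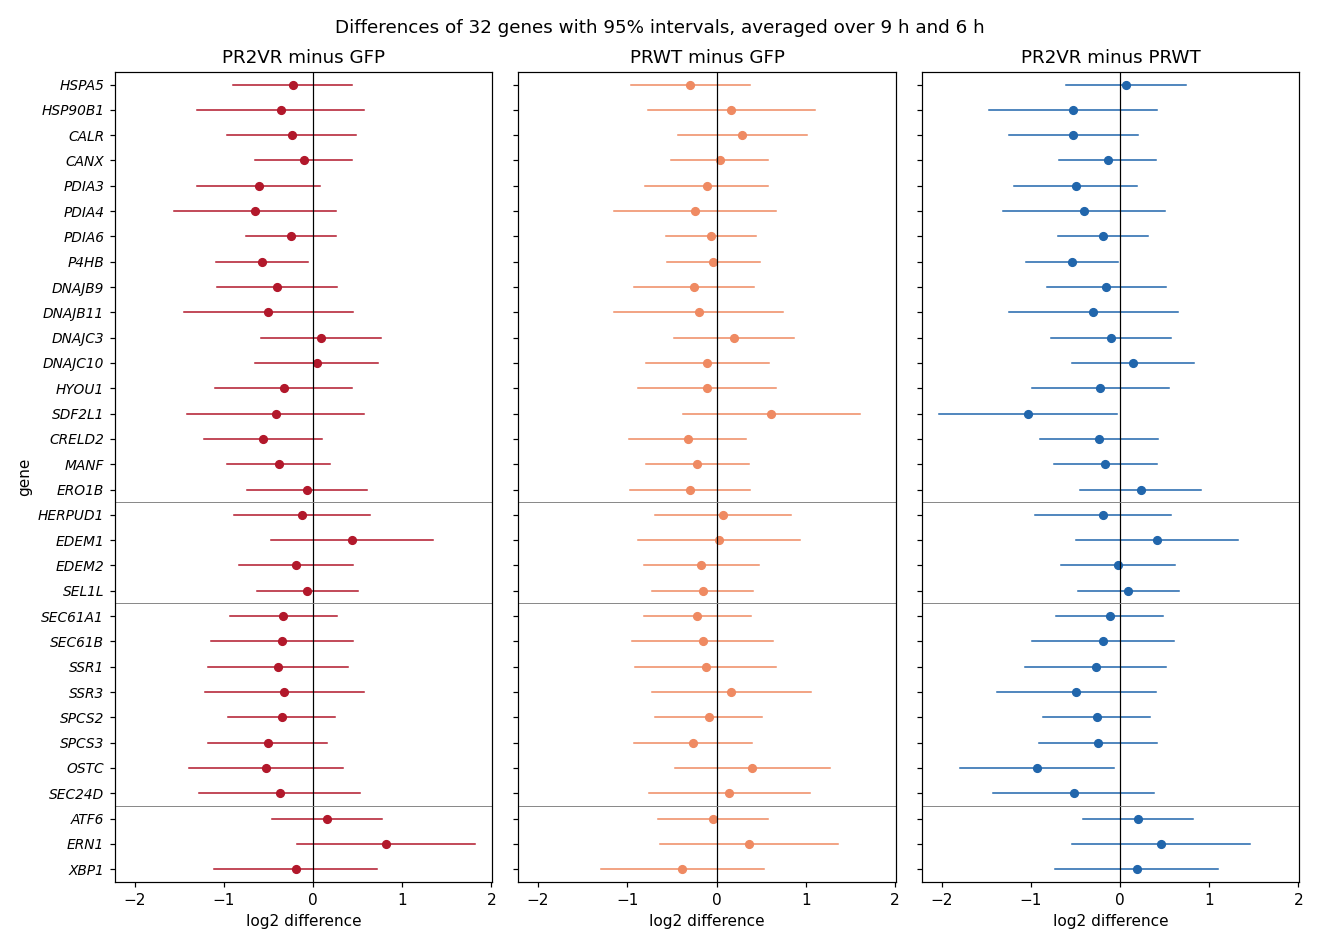
Log2 difference with its 95% interval from limma (horizontal axis) for each of the 32 genes (rows, by class), averaged over 9 h and 6 h with 4 arrays per construct, for PR2VR minus GFP, PRWT minus GFP and PR2VR minus PRWT. Points of PR2VR minus GFP lie below 0 for 27 of 32 genes, and the intervals cross 0 except those of P4HB in PR2VR minus GFP and of P4HB, SDF2L1 and OSTC in PR2VR minus PRWT.

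Between the times, averaged over the constructs, 0 of 32 members passed, beside 0.0788% of all genes, and 0 of 32 beside 0% with the set as a random block. Unadjusted p was under 0.05 for 3 members (15.1% of all genes), or for 0 (5.49%) with the block. The difference was below 0 for 18 of 32 members, beside 39.4% of all genes. The medians were -0.02 for the members and 0.13 for all genes. With quantile normalization they were 0.06 and 0.05, and with each array centred on its median -0.19 and -0.04, in that order. The place of the members beside all genes between times thus depended on the scaling. XBP1 had the largest difference, 0.78 ± 0.34 (adjusted p = 0.32, and 0.86 with the block), from the values given above. It was 0.23 without the 3 arrays of 9 h number 2, which had the highest XBP1 signals and the lowest GAPDH ratios. The other probe set of XBP1 over the filter gave 0.22 on all arrays. Markers of plasma cells, in which XBP1 is high, were also above 0 at 9 h against 6 h for 4 of the 4 tested (median 0.81), as were 5 of 5 B cell markers (median 0.84). The line's own myeloid markers were above 0 for 10 of 15 (median 0.33), beside an all-gene median of 0.13. No plasma cell, B cell or myeloid marker passed, and MZB1, JCHAIN, TNFRSF17 and POU2AF1 lay below the filter. Several of those tested were dim, where the filter stood at a signal of 168.9. Median signals were 277.5 for IGKC, 351.9 for SDC1, 382.4 for IRF4, 151.2 for CD22, 219.7 for CD79B and 271.9 for MS4A1. PRDM1 (5076), PAX5 (4600.1) and CD79A (1025.4) were brighter. The marker medians were not taken without the 3 arrays of 9 h number 2, whose median signal was higher. The labels name U937 cells alone, and any bearing of these markers on the XBP1 value was not tested. CRELD2 differed by -0.59 ± 0.25 (adjusted p = 0.31), and by -0.52 without those arrays. SEL1L read 3648 and 3968 in PR2VR cells, 3604 and 3259 in PRWT cells and 4663 and 3788 in GFP cells at 9 h, against 2803 and 2737 in PR2VR cells, 3256 and 2235 in PRWT cells and 2728 and 2757 in GFP cells at 6 h. All 6 arrays of 9 h were above all 6 of 6 h, which held for 1 of 32 members and 1.25% of all genes, although the gap between them was small. The opposite separation held for 0 of 32 members and 0.666% of all genes. The SEL1L difference was 0.46 ± 0.21 (adjusted p = 0.33), and the other 3 probe sets of the gene over the filter gave -0.12, 0.13 and 0.38. Differences were lowest for EDEM1 among the degradation genes (-0.55 ± 0.34), and they ran from -0.13 ± 0.23 for SEC61A1, the pore of the channel, to 0.70 ± 0.34 for SEC24D among those of translocation. The other probe sets over the filter gave 0.49 for SEC61A1, and 0.12 and -0.30 for SEC24D.

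The remaining genes of the pathway were read from other lists. Their differences are those of both fusions against GFP, in which 52.4% of all genes lay below 0. In the PERK and ATF4 arm 10 of 12 genes had a difference above 0 and 2 one below it, with a median of 0.35, so this arm and the members had medians of opposite sign. The 2 below 0 were EIF2AK3, which encodes PERK itself (-0.33 ± 0.32), and ATF3 (-0.16 ± 0.24). TRIB3, a pseudokinase induced by ATF4, differed by 1.07 ± 0.28, ATF4 by 0.65 ± 0.20 and asparagine synthetase (ASNS) by 0.39 ± 0.26, and 0 of 12 passed in either direction (2 had an unadjusted p under 0.05, as had 3.14% of all genes). With the block 4 of 12 had an unadjusted p under 0.05, beside 8.4% of all genes, and 0 of 12 passed. By the fit that has the block, TRIB3 alone passed in PR2VR against GFP (1.36 ± 0.23, adjusted p = 0.046), 1 of 12 genes beside 0.294% of all genes. Other folding genes had a median of -0.22, with 15 of 19 below 0. Among them MLEC, a lectin for glucosylated glycans, differed by -0.55 ± 0.36, HSPA13 by -0.41 ± 0.40 and TXNDC11 by -0.39 ± 0.24. Other genes of degradation had a median of 0.07, with 8 of 18 below 0. UFD1, a partner of the segregase VCP, differed by -0.42 ± 0.30, UBXN4 by -0.37 ± 0.24 and VCP by -0.31 ± 0.29. Other genes of translocation and glycosylation had a median of -0.08 with 15 of 25 below 0, and the oligosaccharyltransferase subunits DDOST, STT3A and RPN1 had differences of -0.28 ± 0.24, -0.28 ± 0.24 and -0.27 ± 0.22 in that order. Other sensors and proteases had a median of 0.03 with 5 of 12 below 0, among them CREB3 (-0.61 ± 0.37), BAX (-0.45 ± 0.38) and NFYA, a subunit of the factor that binds CCAAT (0.31 ± 0.29). In these 4 lists 0 genes passed for both fusions against GFP over all genes tested, with the block (0.315% of all genes) and without it (0.00716%). Without the block 0 genes in each list had an unadjusted p under 0.05 in that comparison, beside 3.14% of all genes. With it the count was 1 of 19, 1 of 18, 0 of 25 and 1 of 12 in the order of the lists, beside 8.4% of all genes.

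The members were last split by the stress element. The 11 with either form had a median of -0.24 in PR2VR against GFP, from -0.56 to -0.07, so that all 11 were below 0. The 19 others with a promoter at hand had a median of -0.34, from -0.65 to 0.82, with 14 below 0. In PRWT against GFP the medians were -0.06, with 6 of 11 below 0, and -0.12, with 14 of 19 below 0. In PR2VR against PRWT they were -0.19 and -0.17. Without the PR2VR array of 6 h number 1 the PR2VR medians against GFP were -0.20, with 8 of 11 below 0, and -0.10, with 13 of 19 below 0, and those against PRWT were -0.30 and -0.06.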

How the data were processed

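Trizol extracts of total RNA (6 ug) were turned into biotin-labelled cRNA, per the labels' protocols. The deposited intensity values are linear MAS5 signals, per the submitters' processing notes, which give no version. Each array had a 2% trimmed mean signal of 1500.2, and nothing was rescaled. The platform annotation gives 1 gene symbol for 41091 of 54675 probe sets. The scale is log2(signal + 62.5), the offset being the 20th percentile of all values. Genes were tested if their mean reached log2 7.85, the 40th percentile over probe sets. No detection calls were used. The number of arrays limits the precision.

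limma 3.58.1 in R 4.3.3 fitted 1 mean per group over the 12 arrays (6 residual degrees of freedom) with a variance trend, and p was adjusted by Benjamini-Hochberg over 13959 genes, in 8 comparisons. Same-numbered arrays deviated together from their group means (r = 0.56 to 0.63 between constructs at 9 h, 0.15 to 0.36 at 6 h), and the numbers in the titles were taken to pair the arrays. The labels do not state this pairing. It was inferred from these same values, and they show it less clearly at 6 h. A second fit therefore had the set as a block, with 4 residual degrees of freedom, or as a random block between times. The fits were tested on simulated data. The 35 members and all lists were chosen with earlier results of these data known. Values on every array are given for 8 core members and for the 3 with the smallest unadjusted p in 3 comparisons. The extremes of each class and 3 genes per other list are also named. Members named elsewhere, in counts or for their variation between sets, were picked after their values were seen.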

Additional observations from a re-analysis of the deposited data

How the results depend on the processing

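The alternatives were the replicate block, offsets of 16 and 250, no filter and a stricter one, quantile normalization, median centring, no variance trend, the mean of all probe sets of a gene, the 3 arrays of 9 h number 2 omitted, and each array left out in turn. The number of members called was 0 in all 8 comparisons under each of them. With the replicate block the median over members of both fusions against GFP was -0.18, as without it, since the block alters only errors here, while the calls over all genes were 44 with it and 1 without it, 41 and 1 for PR2VR against GFP, and 0 and 11 between times. Between times the calls over all genes were also 3 with quantile normalization, 4 with the mean of probe sets, 2 without the variance trend and 0 to 53 with 1 array left out. The member median at 9 h against 6 h was 0.06 with quantile normalization and -0.19 with median centring, beside all-gene medians of 0.05 and -0.04. Centring also put the median of the fusions at 9 h at -0.08 and that of the difference between times at 0.20, HERPUD1 for the fusions at 0.01 and P4HB in PRWT at 0.01. With the mean of all probe sets the median of the fusions at 6 h was -0.18 and that of the difference between times 0.08. HERPUD1 was then 0.06 and DNAJC3 -0.02 for the fusions, HSPA5 0.02 in PR2VR against GFP and SEC61A1 0.18 between times. With the arrays of 9 h number 2 omitted the fusion median was -0.23 and that at 9 h -0.11, HSP90B1 was 0.04 and HERPUD1 0.00 for the fusions, and SEC61A1 was 0.05 and ERN1 0.10 between times. The cause of these shifts was not tested.

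Leaving out 1 array at a time, the member medians ranged from -0.26 to -0.07 for both fusions, from -0.11 to -0.05 for PRWT and from -0.42 to -0.18 for PR2VR against GFP, from -0.25 to -0.13 for PR2VR against PRWT, from -0.08 to 0.05 between times, from -0.18 to -0.14 for the fusions at 9 h, from -0.29 to -0.01 for those at 6 h and from -0.09 to 0.15 for the difference between times. Class medians and counts without the PR2VR array of 6 h number 1 or the 9 h number 2 arrays were added after seeing the data. The number of members below 0, also added then, ranged from 22 to 27 for both fusions, from 22 to 27 for PR2VR and from 17 to 25 for PRWT against GFP, and from 19 to 26 for PR2VR against PRWT. Single genes whose sign turned were, for both fusions, HSP90B1 (-0.54 to 0.34), HERPUD1 (-0.20 to 0.14), SDF2L1 (-0.34 to 0.54), XBP1 (-0.59 to 0.01), ATF6 (-0.02 to 0.13), OSTC (-0.28 to 0.16), DNAJC3 (-0.08 to 0.36) and EDEM1 (-0.07 to 0.54). For PR2VR against GFP this was SDF2L1 (-0.85 to 0.02), and for PRWT P4HB (-0.14 to 0.06) and ERN1 (-0.05 to 0.77). For PR2VR against PRWT they were HSPA5 (-0.15 to 0.29), HERPUD1 (-0.51 to 0.12), XBP1 (-0.17 to 0.55), ERO1B (-0.03 to 0.49) and SEC61A1 (-0.31 to 0.07), and between times SEC61A1 (-0.26 to 0.00). With 2 arrays per group, differences of the size seen here were not told apart from the scatter of the arrays.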

Other observations

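The 3 genes left out for their annotation had probe sets that the array shares with a second gene, so their values can hold more than 1 transcript. The probe set of PDIA5, a disulfide isomerase, read 5181 and 3877 in PR2VR cells at 9 h and 4134 and 5424 at 6 h, 6215 and 5404 in PRWT cells at 9 h and 5396 and 6019 at 6 h, and 6649 and 5450.1 in GFP cells at 9 h and 6181 and 5864 at 6 h. PR2VR was the lowest of each of the 4 sets, with a mean log2 difference from GFP of -0.38, which was not tested. The probe set of SYVN1, the ubiquitin ligase HRD1, had a difference of -0.13 in PR2VR and 0.00 in PRWT against GFP. That of TXNDC5, a further thioredoxin-like enzyme, had 0.21 and 0.05.

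Of the 32 members 24 had more than 1 probe set with their symbol alone. For both fusions against GFP, 34 of the 50 further probe sets over the filter had the sign of the one used, and 35 of the 50 were below 0. For PR2VR against PRWT it was 30 of 50, with 30 below 0.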
